A study of Mus musculus with 48 samples.

Results

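The cytochrome P450 genes were taken as all genes whose symbol starts with Cyp and a digit in the platform annotation, without Cyp27b1, Cyp24a1 and Cyp51. Each gene was read by the probe set that the annotation pairs with that symbol alone and that had the highest mean over the 48 arrays, and a gene was kept when it lay above log2 5 on at least 4 arrays. Of 70 such genes 23 were kept, among 13174 genes tested in all. The study removed most of the kidney mass by subtotal nephrectomy (Nx) or performed a sham operation in mice of 2 strains, FVB, which the series' text calls predisposed to renal lesions, and C57BL/6 (B6), which it calls not predisposed. All mice were 9 weeks old at surgery, and whole kidneys were frozen 2, 28 or 53 days later. The 12 groups were Nx and sham kidneys of each strain at each day, with 4 mice in each and 1 Affymetrix array per mouse. The control of every comparison is therefore an operated kidney of the same strain and day, no other treatment or allele is named, and the model is limited to 2 strains and to RNA of the whole organ. A value below is the deposited log2 value of an array, a change is the mean of the Nx group minus that of the sham group on the same log2 scale, and SE is the standard error of that difference from limma, a linear model fitted to all 12 groups. A gene was called higher or lower when its p, adjusted by Benjamini-Hochberg over the 13174 genes, was under 0.05.

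Cytochrome P450 enzymes are haem proteins that pass an oxygen atom to their substrate, with electrons supplied by P450 reductase in the endoplasmic reticulum or by ferredoxin in mitochondria. In the kidney they sit mainly in the proximal tubule. There the Cyp2c, Cyp2j and Cyp4 subfamilies turn arachidonic acid and other fatty acids into epoxides and hydroxylated products that act on salt transport and vessel tone, and other subfamilies handle drugs, sterols, bile acids and retinoids.

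The members were split by subfamily into 7 that mainly handle drugs and foreign compounds, 11 of fatty acid and eicosanoid metabolism, 3 that act on sterols and bile acids, the retinoic acid hydroxylase Cyp26b1, and Cyp20a1, which has no settled substrate. Of the 23, 15 lay above log2 5 on all 48 arrays. Nearest to the threshold were Cyp4f16 with 5 arrays above it, Cyp4f13 with 18, Cyp39a1 with 20 and Cyp26b1 with 21. Just outside lay Cyp11b1, Cyp2j13 and Cyp4a12a with 3 arrays each and Cyp11a1 with 2. All 23 matched RefSeq by gene ID. Of the 47 genes not kept, 12 lay at the lowest deposited value on all 48 arrays, among them Cyp1a2, Cyp7a1 and Cyp17a1.

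Some arrays held transcripts of other organs. The adrenal enzyme Hsd3b1 read 10.83 and 11.29 on the arrays of FVB Nx mice 10 and 8 at day 53 and 9.46 on that of B6 sham mouse 4 at day 2. Cyp11b1, the last enzyme of glucocorticoid synthesis, read 8.95, 9.66 and 7.58 on the same 3 arrays and under log2 4 on all others. The array of FVB sham mouse 4 at day 28 had the highest hepatocyte marker mean, 8.47, and only there did the liver enzymes Cyp2c29 (6.49) and Cyp3a11 (6.00) exceed log2 4. Pancreas markers averaged over log2 5 on 16 of the 24 arrays of Nx mice, and on 2 of the 24 from sham mice. The labels give no sex; Xist, which is transcribed from the inactive X chromosome, read 12.93 to 13.56 on all 48 arrays, and the Y-linked genes Eif2s3y and Kdm5d lay at the lowest value on all of them.

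At day 2 members were called in both directions in both strains, as was a large share of all genes tested. In FVB kidneys 6 of 23 were higher and 9 lower, against 24.8% and 30.0% of all genes tested, and their median change was -0.29 against -0.03 for all genes. In B6 kidneys 7 were higher and 7 lower, against 20.2% and 24.4% of all genes, with medians of -0.01 and -0.02. The drug and foreign compound group split into 2 higher and 2 lower of 7 in FVB and 3 higher and 2 lower in B6. The fatty acid group had 3 higher and 5 lower of 11 in FVB and 3 higher and 4 lower in B6. Cyp2d12, Cyp2d26, Cyp2c23, Cyp2j11, Cyp27a1, Cyp2j5 and Cyp4f13 were lower in both strains, and Cyp7b1, Cyp1b1, Cyp4v3, Cyp4a31 and Cyp2s1 were higher in both.

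By day 28 fewer members stood apart from sham, as did fewer of all genes. In FVB 4 were higher and 2 lower of 23 (7.35% and 8.81% of all genes), with a median of -0.04 against -0.02 for all genes. In B6 3 were higher and 3 lower (9.85% and 9.14% of all genes), with a median of -0.01 against -0.02. These small counts rested on single arrays and on the spread taken from all groups: in FVB the higher count was 2 without Nx mouse 7 or without sham mouse 3, and the lower count was 0 without Nx mouse 3 or mouse 7 and 1 without Nx mouse 2, sham mouse 2 or sham mouse 3. In B6 the higher count was 1 without sham mouse 5.

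At day 53 more members were called in FVB than in B6, and so were more of all genes. In FVB 7 members, 1 of them Cyp4f16, which was kept only through its values in that group, were higher and 9 lower (25.9% and 27.8% of all genes), with a median of -0.03 against -0.01 for all genes. In B6 5 were higher and 2 lower (8.03% and 6.68% of all genes), with a median of 0.14 against -0.01. The 5 higher in B6 became 2 without Nx mouse 1, Nx mouse 7, sham mouse 3 or sham mouse 5, and 3 without Nx mouse 4. Leaving out the arrays with adrenal transcripts, an alternative chosen after seeing the data, left only FVB Nx mice 4 and 7 at day 53. The FVB counts at day 53 were then 7 higher and 7 lower, because Cyp27a1 and Cyp4f13 no longer passed. Whether the adrenal RNA or the smaller number of arrays lay behind these lost calls was not tested.

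**Figure D1:**
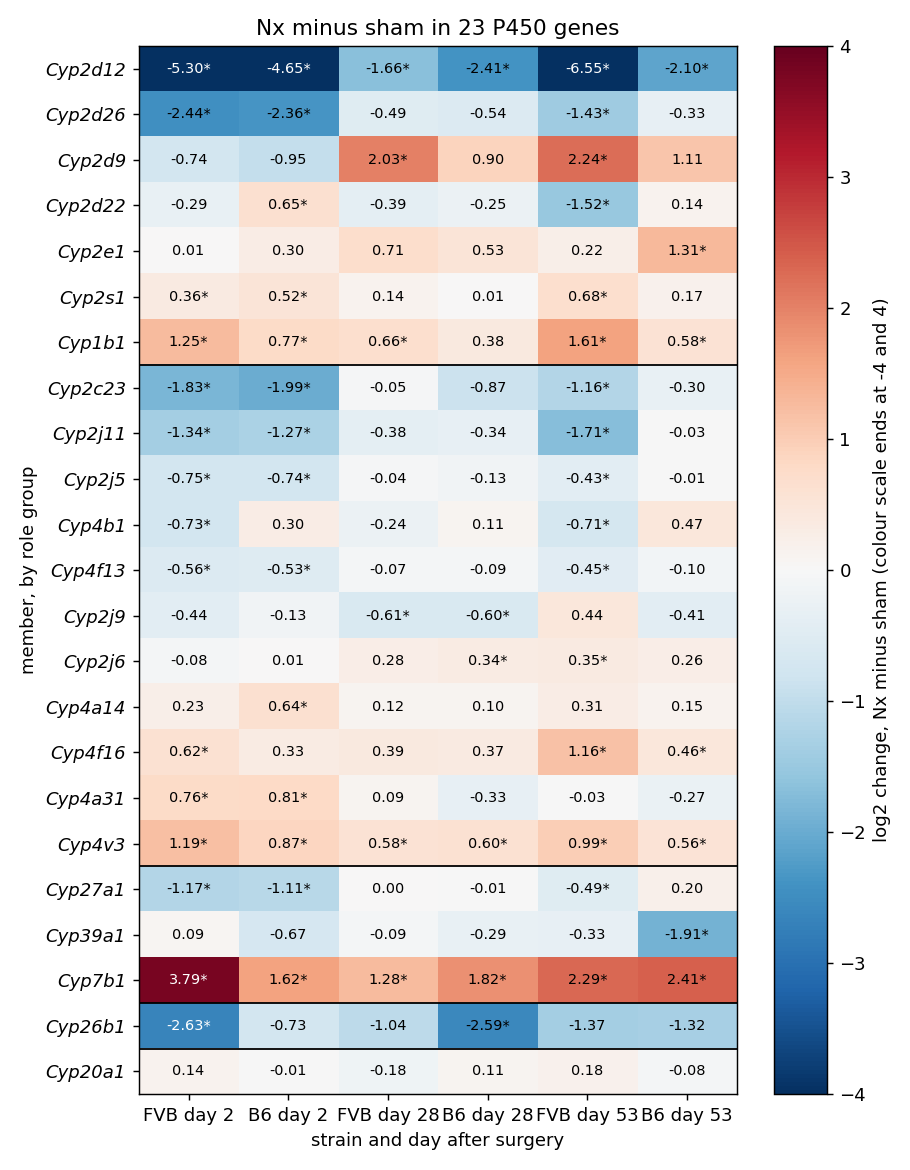
Log2 change (Nx minus sham, 4 arrays against 4) of the 23 members in the 6 surgery comparisons, with members in rows by role group and strain and day in columns; red is higher, blue lower, and an asterisk marks an adjusted p under 0.05 in limma. Cyp2d12 was lower and Cyp7b1 and Cyp4v3 were higher in all 6 comparisons, and the colour scale ends at -4 and 4, so that the -5.30, -4.65 and -6.55 of Cyp2d12 lie beyond it.

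The share of higher genes among those called depends on how arrays are scaled. When each array was shifted to a common median, the median change of all genes moved from -0.03 to -0.21 in FVB and from -0.02 to -0.15 in B6 at day 2, and from -0.01 to -0.17 in FVB at day 53. The share of higher genes among those called fell from 45.33% to 26.49%, from 45.2% to 28.51% and from 48.23% to 29.63%. The member counts under that scaling were 5 higher and 11 lower in FVB at day 2, 7 and 7 in B6 at day 2, and 6 and 10 in FVB at day 53. Where an enzyme of the tubule is lower in whole-kidney RNA, fewer tubule cells and less RNA per cell cannot be told apart. Proximal tubule markers moved with the falls: 14 of 18 were lower and 0 higher in FVB at day 2 (median log2 -1.13), 14 lower and 1 higher in B6 at day 2 (-0.90), 15 lower and 0 higher in FVB at day 53 (-1.10), and 6 lower and 3 higher in B6 at day 53 (-0.19). The mean of the 18 markers per array ran from 11.55 to 12.06 in FVB Nx kidneys at day 2. At day 53 it ran from 11.11 to 11.55 in FVB Nx and from 12.38 to 12.62 in B6 Nx kidneys. In FVB sham kidneys at day 28, which are the control of none of these groups, it ran from 12.62 to 12.80. No proximal tubule marker lay at or under the filter value. Macrophage markers were higher in 13 of 13 in FVB at days 2 and 53 and in 12 and 10 of 13 in B6, and fibroblast markers were higher in 8 of 8 in FVB and 7 of 8 in B6 at both days. What part these cell mixtures had in the P450 changes was not tested.

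Among the drug and foreign compound subfamilies, Cyp2d12 had the largest fall in each of the 6 comparisons. The Cyp2d enzymes oxidise many drugs and amines. In FVB kidneys at day 2 the Cyp2d12 values were 9.56, 8.60, 8.39 and 9.08 in sham mice and 3.47, 2.99, 2.99 and 4.97 in Nx mice. In B6 kidneys they were 8.92, 8.91, 8.73 and 8.19 in sham and 5.08, 3.58, 4.47 and 3.03 in Nx mice. No Nx array reached the sham range in either strain, and Cyp2d12 fell in FVB (log2 -5.30, SE 0.49, adjusted p = 1.2e-11) and in B6 (log2 -4.65, SE 0.49, adjusted p = 5.99e-10). All Nx arrays but 1 lay under log2 5, near the low end of the scale, so that the size of these falls is not well measured and no fold is given. At day 28 the FVB Nx arrays read 8.32, 6.89, 6.82 and 7.05 and the B6 Nx arrays 4.76, 7.29, 7.65 and 8.42. All lay below the sham arrays of their strain, which ran from 8.53 to 9.29 in FVB and from 9.27 to 9.77 in B6. The change was smaller than at day 2, -1.66 (SE 0.49) in FVB and -2.41 (SE 0.49) in B6, and this lessening itself passed the test in FVB (log2 3.64, SE 0.69, adjusted p = 0.000137) and in B6 (log2 2.24, SE 0.69, adjusted p = 0.0338). The FVB call at day 28 was lost without arrays carrying pancreas RNA (log2 -0.49, adjusted p = 0.586). It was also lost without Nx mouse 3 or 7 (log2 -1.53 to -1.51, adjusted p = 0.0514 to 0.0583). The B6 call at day 28 was lost with only the compared arrays fitted (log2 -2.41, adjusted p = 0.0954), and was -4.70 without arrays carrying pancreas RNA. The B6 call on the lessening was lost in 4 alternatives (log2 1.32 to 2.24, adjusted p = 0.0541 to 0.163). It was also lost without B6 Nx day 2 mouse 5 or 11, B6 Nx day 28 mouse 4, 5 or 9, B6 sham day 2 mouse 1, 2 or 4 or B6 sham day 28 mouse 1, 5 or 6 (log2 1.78 to 2.23, adjusted p = 0.0512 to 0.108). Its sign turned, to -1.10, once arrays carrying pancreas RNA were dropped, when the Nx groups at days 2 and 28 held 1 array each. By day 53 the FVB Nx arrays were again near the bottom of the scale, at 3.05, 3.53, 2.83 and 3.01, and the sham arrays at 10.16, 9.18, 9.60 and 9.66. The B6 Nx arrays read 7.08, 8.54, 8.17 and 7.02 and the sham arrays 9.91, 9.71, 9.93 and 9.69. Cyp2d12 was lower in FVB (log2 -6.55, SE 0.49, adjusted p = 4.4e-14) and in B6 (log2 -2.10, SE 0.49, adjusted p = 0.00213), and the effects differed (log2 -4.44, SE 0.69, adjusted p = 6.02e-06). With values under log2 5 set to log2 5, the difference between strains was -2.55, and the changes in FVB from day 2 to 28 and from day 28 to 53 were 2.25 and -2.99; each still passed. The sham kidneys of the strains did not differ beyond the threshold for this gene (log2 -0.15, SE 0.28, adjusted p = 0.766).

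Cyp2d26 also fell at day 2 in both strains and at day 53 in FVB. At day 2 its values were 11.99, 11.65, 11.79 and 12.12 in FVB sham and 9.18, 9.23, 9.22 and 10.14 in FVB Nx kidneys. In B6 they were 12.51, 12.73, 12.81 and 12.53 in sham and 10.50, 10.28, 10.75 and 9.59 in Nx kidneys. The groups did not overlap, and Cyp2d26 fell in FVB (log2 -2.44, SE 0.21, adjusted p = 1.66e-12) and in B6 (log2 -2.36, SE 0.21, adjusted p = 9.14e-12); the difference between the strains was -0.08 (SE 0.29) with an adjusted p of 0.928. At day 28 the changes of -0.49 and -0.54 did not pass. On day 53 FVB Nx arrays read 10.44, 11.74, 10.81 and 10.65 against 12.41, 12.07, 12.54 and 12.35 in sham (log2 -1.43, SE 0.21, adjusted p = 2.1e-07). The B6 Nx arrays, at 12.83, 12.83, 12.98 and 12.92, lay just under the sham arrays at 13.16, 13.42, 13.22 and 13.10 (log2 -0.33, SE 0.21, adjusted p = 0.326), and the effects differed between strains (log2 -1.10, SE 0.29, adjusted p = 0.00386). Within FVB the effect at day 53 was stronger than at day 28 (log2 -0.94, SE 0.29, adjusted p = 0.014), a call that was lost without the arrays with adrenal transcripts (-0.77, adjusted p = 0.0985).

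Sequences upstream of the start site were taken from RefSeq, build GRCm38.p6, for the 16 members that the table used holds. They are shown for a few members that fell in both strains at day 2, and for the member Cyp1b1 that rose, so that letter matches to liver, kidney and Ah receptor motifs can be read beside the changes. Each is the 250 bases before the start of transcription, written 5′ to 3′ on the gene's own strand. Capitals mark matches on either strand to TATAAA (the TATA box), GTTAAT (the core of HNF1 sites), AGGTCA (the core of nuclear receptor sites), CAAAGT (a core of HNF4 sites), GCGTG (the core that the Ah receptor binds) and CCAAT. None of these letter strings contains another. The Cyp2d26 window lies at chr15:82794246-82794495 on the minus strand:
Cyp2d26: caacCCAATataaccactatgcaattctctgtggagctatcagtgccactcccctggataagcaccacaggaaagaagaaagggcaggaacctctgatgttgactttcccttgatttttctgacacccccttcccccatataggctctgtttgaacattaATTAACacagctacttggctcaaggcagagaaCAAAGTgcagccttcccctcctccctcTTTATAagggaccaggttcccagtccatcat
The Cyp2j5 window lies at chr4:96664120-96664369 on the minus strand:
Cyp2j5: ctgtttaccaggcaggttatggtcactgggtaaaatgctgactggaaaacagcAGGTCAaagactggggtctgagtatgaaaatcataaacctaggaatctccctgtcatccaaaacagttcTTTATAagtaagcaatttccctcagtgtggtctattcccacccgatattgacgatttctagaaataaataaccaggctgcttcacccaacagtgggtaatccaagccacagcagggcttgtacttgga
The Cyp27a1 window lies at chr1:74713285-74713534 on the plus strand:
Cyp27a1: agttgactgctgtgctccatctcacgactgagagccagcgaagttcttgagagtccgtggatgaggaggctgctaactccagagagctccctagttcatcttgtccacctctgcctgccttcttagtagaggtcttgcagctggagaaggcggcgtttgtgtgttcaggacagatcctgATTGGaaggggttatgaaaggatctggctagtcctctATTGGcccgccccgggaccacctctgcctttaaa
The Cyp1b1 window lies at chr17:79715062-79715311 on the minus strand:
Cyp1b1: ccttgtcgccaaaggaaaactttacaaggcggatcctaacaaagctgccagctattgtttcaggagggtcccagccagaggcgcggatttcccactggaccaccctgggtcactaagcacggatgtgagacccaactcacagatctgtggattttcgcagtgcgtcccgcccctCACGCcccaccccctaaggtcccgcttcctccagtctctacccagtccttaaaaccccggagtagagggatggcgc
Over 32851 windows of the same length from the table, 12.37% held TATAAA, 6.432% GTTAAT, 14.02% AGGTCA, 12.55% CAAAGT, 28.16% GCGTG and 33.85% CCAAT. Among the 16 members TATAAA was found in 5 (Cyp26b1, Cyp2d26, Cyp2d9, Cyp2e1 and Cyp2j5), GTTAAT in Cyp2d26, AGGTCA in Cyp2j5, CAAAGT in 3 (Cyp20a1, Cyp2d26 and Cyp2j9), GCGTG in 5 (Cyp1b1, Cyp20a1, Cyp2j9, Cyp4f16 and Cyp4v3) and CCAAT in 6. In Cyp2d26 the TATA match starts at -31 and the HNF4 and HNF1 matches at -58 and -90, counted in bases from the start site, while in Cyp1b1 the GCGTG match lies at -76. The windows of Cyp2j11, Cyp2s1 and Cyp4b1 held none of these strings and are not shown. Of these, Cyp2j11 fell and Cyp2s1 rose in both strains at day 2. These are letter matches and describe no binding.

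Unlike Cyp2d12 and Cyp2d26, the other Cyp2d members, Cyp2d22 and Cyp2d9, were not called lower at day 2 in either strain. Cyp2d22 differed between the strains: in sham kidneys its values lay between 9.12 and 9.75 in FVB and between 6.59 and 7.41 in B6 (log2 2.46, SE 0.11, adjusted p = 5.86e-21), and its second probe set gave 2.29. At day 2 the B6 Nx arrays read 7.80, 7.00, 7.17 and 7.53 and the sham arrays 6.59, 6.99, 6.72 and 6.60, so that Cyp2d22 rose in B6 (log2 0.65, SE 0.20, adjusted p = 0.00615), where no Nx array lay below the highest sham array. In FVB the change of -0.29 (SE 0.20) did not pass at day 2. At day 53 the FVB Nx arrays read 7.97, 8.10, 8.18 and 7.80 and the sham arrays 9.51, 9.34, 9.56 and 9.70. The groups lay more than 1 log2 unit apart, and Cyp2d22 fell in FVB (log2 -1.52, SE 0.20, adjusted p = 1.98e-08) but its change in B6 was 0.14 (SE 0.20), with a difference between strains that passed (log2 -1.66, SE 0.28, adjusted p = 1.81e-05). The strain difference at day 2 (log2 -0.95, SE 0.28, adjusted p = 0.0396) was lost without B6 Nx mouse 3 or 11, B6 sham mouse 1, 4 or 5, FVB Nx mouse 2 or FVB sham mouse 1 or 5 (log2 -0.97 to -0.80, adjusted p = 0.0545 to 0.109). It was also lost in 5 alternatives (log2 -0.95 to -0.88, adjusted p = 0.0522 to 0.072).

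Cyp2d9, a steroid hydroxylase known for male-biased expression in mouse liver, went up late. At day 28 its values were 6.35, 6.35, 4.81 and 6.62 in FVB sham and 7.79, 8.75, 8.71 and 6.98 in FVB Nx kidneys (log2 2.03, SE 0.48, adjusted p = 0.00238). At day 53 they were 5.90, 6.99, 6.54 and 6.40 in sham and 8.22, 9.97, 9.27 and 7.34 in Nx kidneys (log2 2.24, SE 0.48, adjusted p = 0.000129), and at both days every Nx array lay above every sham array. The change at day 2 had been -0.74 (SE 0.48), and the shift from day 2 to day 28 passed (log2 2.76, SE 0.68, adjusted p = 0.00241). In B6 the changes of -0.95, 0.90 and 1.11 did not pass, although the B6 Nx arrays at day 53, 10.73, 10.65, 10.23 and 10.67, lay above the sham arrays, 9.78, 9.34, 9.40 and 9.31. The difference between strains at day 53 did not pass (log2 1.13, SE 0.68, adjusted p = 0.229). Sham kidneys of FVB had lower values than those of B6 (log2 -2.91, SE 0.28, adjusted p = 2.4e-11). The FVB call at day 28 was lost with only the compared arrays fitted (log2 2.03, adjusted p = 0.0511) and without arrays carrying pancreas RNA (log2 1.95, adjusted p = 0.165).

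Cyp1b1, which the Ah receptor induces and which oxidises oestrogens and aromatic hydrocarbons, was higher in 5 of the 6 comparisons. At day 2 its values were 8.69, 8.82, 8.84 and 9.04 in FVB sham and 10.45, 10.46, 9.96 and 9.54 in FVB Nx kidneys (log2 1.25, SE 0.21, adjusted p = 2.05e-06). In B6 they were 9.22, 9.36, 9.30 and 9.12 in sham and 10.08, 10.32, 9.50 and 10.20 in Nx kidneys (log2 0.77, SE 0.21, adjusted p = 0.00209). The groups did not overlap in either strain. At day 53 the FVB Nx arrays read 10.20, 10.43, 10.56 and 9.66 against 8.53, 8.95, 8.02 and 8.91 (log2 1.61, SE 0.21, adjusted p = 1.48e-08). The B6 Nx arrays read 9.92, 9.57, 9.89 and 9.61 against 9.36, 9.10, 9.28 and 8.92 (log2 0.58, SE 0.21, adjusted p = 0.0491). The rise was larger in FVB (log2 1.03, SE 0.29, adjusted p = 0.00614) and larger there at day 53 than at day 28 (log2 0.95, SE 0.29, adjusted p = 0.0123). The call in FVB at day 28 (0.66 (SE 0.21)) was lost without Nx mouse 7 or 8 or sham mouse 2 or 3 (log2 0.52 to 0.63, adjusted p = 0.0552 to 0.124). That in B6 at day 53 was lost without Nx mouse 1, 4 or 7 or sham mouse 3, 5 or 6 (log2 0.50 to 0.63, adjusted p = 0.0578 to 0.15). Nqo1, the other Ah receptor target with a large change, rose by 1.91 in FVB and 2.72 in B6 at day 2, while Tiparp stayed at -0.27 and -0.10 and was not called; Cyp1a1, singled out after its values were seen and not kept as a member because it never exceeded log2 5, was lower in FVB at day 2 (log2 -0.57). The FVB call of Cyp1b1 at day 28 was also lost with only the compared arrays fitted (log2 0.66, adjusted p = 0.0668) and without arrays carrying pancreas RNA (log2 0.48, adjusted p = 0.46). Its B6 call at day 53 was lost in 5 alternatives (log2 0.41 to 0.58, adjusted p = 0.0511 to 0.23). The change in FVB from day 28 to 53 was lost with only the compared arrays fitted (log2 0.95, adjusted p = 0.057).

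Cyp2s1, an enzyme of epithelia that Ah receptor ligands can also induce, rose in B6 at day 2, from 6.36, 6.72, 6.62 and 6.77 in sham to 7.08, 7.49, 7.07 and 6.89 in Nx kidneys (log2 0.52, SE 0.14, adjusted p = 0.00265). It also rose in FVB at day 53, from 6.10, 6.18, 6.30 and 6.40 to 6.76, 7.06, 7.08 and 6.79 (log2 0.68, SE 0.14, adjusted p = 8.28e-05). Its smaller rise in FVB at day 2, from 5.99, 6.12, 6.34 and 6.33 to 6.52, 6.31, 6.29 and 7.10, had overlapping groups (log2 0.36, SE 0.14, adjusted p = 0.0269) and was lost without Nx mouse 5 or sham mouse 1 or 2 (log2 0.18 to 0.34, adjusted p = 0.0617 to 0.253). It was also lost in 5 alternatives (log2 0.18 to 0.36, adjusted p = 0.0794 to 0.251). Cyp2e1, which oxidises ethanol and small solvents, was called once, in B6 at day 53, where the Nx arrays read 12.51, 12.40, 12.32 and 12.81 and the sham arrays 10.27, 11.43, 11.62 and 11.49 (log2 1.31, SE 0.26, adjusted p = 0.000354). The FVB Nx arrays that day, 11.73, 12.40, 12.35 and 11.89, overlapped the sham arrays, 12.08, 11.35, 12.08 and 11.96 (log2 0.22, SE 0.26, adjusted p = 0.498), and the effects differed between strains (log2 -1.08, SE 0.37, adjusted p = 0.022), a call lost without B6 Nx mouse 7, B6 sham mouse 1 or FVB Nx mouse 4 (log2 -0.98 to -0.77, adjusted p = 0.0506 to 0.0908). The strain difference of Cyp2e1 was also lost with array weights (log2 -0.90, adjusted p = 0.0574), with only the compared arrays fitted (log2 -1.08, adjusted p = 0.0501) and without arrays carrying pancreas RNA (log2 -0.91, adjusted p = 0.118).

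**Figure D2:**
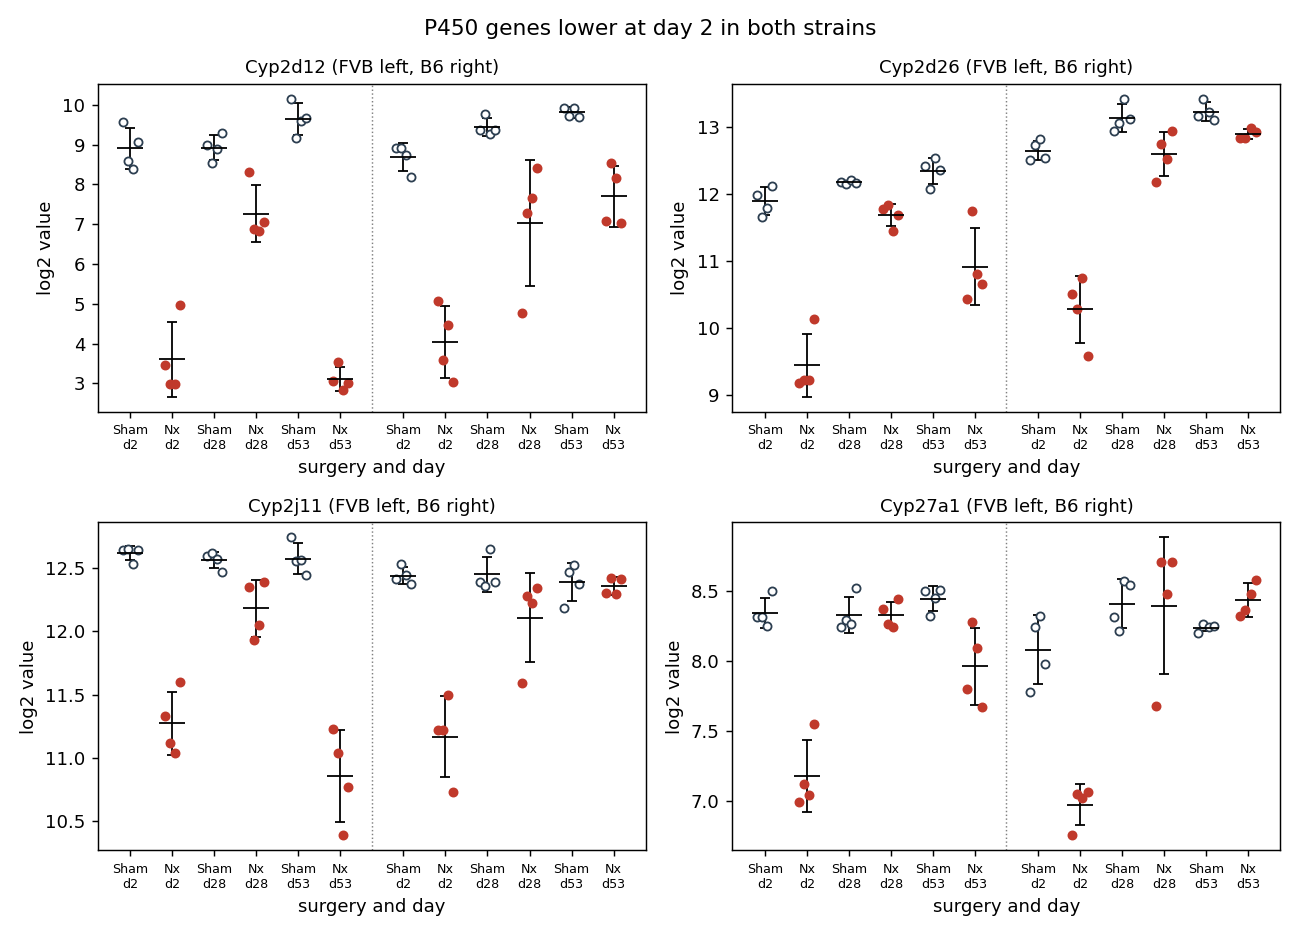
Log2 values of Cyp2d12, Cyp2d26, Cyp2j11 and Cyp27a1 on every array, by strain, day and surgery; open points are sham and filled points Nx mice (4 per group), and the bars give the mean and its SD. In FVB and B6 the Nx points lie below the sham points at day 2 in all 4 panels, and at day 53 the FVB Nx points lie low again while the B6 Nx points of Cyp2j11 and Cyp27a1 lie at or above 12.29 and 8.32.

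Among the fatty acid and eicosanoid subfamilies, the arachidonic acid epoxygenase genes Cyp2c23 and Cyp2j5 and their relative Cyp2j11 were lower at day 2 in both strains. Cyp2c23, a major epoxygenase of mouse kidney, read 6.59, 5.13, 5.55 and 6.48 in FVB sham and 3.78, 3.77, 3.79 and 5.07 in FVB Nx kidneys at day 2 (log2 -1.83, SE 0.34, adjusted p = 1.63e-05). In B6 it read 8.58, 9.40, 9.35 and 9.28 in sham and 7.27, 7.36, 7.76 and 6.28 in Nx kidneys (log2 -1.99, SE 0.34, adjusted p = 7.89e-06). All Nx arrays lay under the sham arrays of their strain, while the B6 Nx arrays with 1 exception lay above all FVB sham arrays of that day. In FVB at day 53 the Nx arrays read 4.72, 6.51, 5.57 and 6.35 against 7.02, 6.79, 7.13 and 6.83 (log2 -1.16, SE 0.34, adjusted p = 0.00388), and the B6 change was -0.30 (SE 0.34). The strain difference of these effects did not pass (log2 -0.86, SE 0.48, adjusted p = 0.189). Sham kidneys differed by more than any surgery effect on this gene: FVB read 7.99-fold below B6 (log2 -3.00, SE 0.20, adjusted p = 4.69e-16), on the only probe set annotated to it alone. With a floor at log2 5 the fall in FVB at day 2 was -0.92 and still passed, and the change from day 2 to day 28 in FVB (1.78 (SE 0.48)) was lost with a floor at log2 5 (log2 0.87, adjusted p = 0.13).

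Of the Cyp2j subfamily, Cyp2j5 and Cyp2j11 fell at day 2, and Cyp2j6 and Cyp2j9 were not called then. Cyp2j11 read 12.64, 12.65, 12.53 and 12.64 in FVB sham and 11.33, 11.12, 11.04 and 11.60 in FVB Nx kidneys at day 2 (log2 -1.34, SE 0.15, adjusted p = 5.53e-10). In B6 it read 12.41, 12.53, 12.44 and 12.37 in sham and 11.22, 11.22, 11.50 and 10.73 in Nx kidneys (log2 -1.27, SE 0.15, adjusted p = 4.62e-09). The groups did not overlap, and the falls differed between strains by -0.08 (SE 0.21) with an adjusted p of 0.9. At day 28 the changes of -0.38 and -0.34 did not pass. Later, at day 53, the FVB Nx arrays read 11.23, 11.04, 10.39 and 10.77 against 12.74, 12.55, 12.56 and 12.44 (log2 -1.71, SE 0.15, adjusted p = 1.47e-12). The B6 Nx arrays, 12.30, 12.42, 12.29 and 12.41, lay inside the sham range of 12.18, 12.47, 12.52 and 12.37 (log2 -0.03, SE 0.15, adjusted p = 0.976). The effects differed between strains (log2 -1.68, SE 0.21, adjusted p = 1.23e-07) and, within FVB, between days 28 and 53 (log2 -1.33, SE 0.21, adjusted p = 7.41e-06).

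Cyp2j5, an epoxygenase abundant in mouse kidney, fell at day 2 in both strains and at day 53 in FVB. At day 2 its values were 14.24, 14.17, 14.15 and 14.15 in FVB sham and 13.40, 13.32, 13.39 and 13.62 in FVB Nx kidneys (log2 -0.75, SE 0.09, adjusted p = 1.64e-09). In B6 they were 14.13, 14.14, 14.16 and 14.14 in sham and 13.49, 13.49, 13.68 and 12.94 in Nx kidneys (log2 -0.74, SE 0.09, adjusted p = 3.88e-09). In FVB at day 53 Nx arrays read 13.63, 13.63, 13.40 and 13.80 against 14.11, 14.02, 14.05 and 14.01 (log2 -0.43, SE 0.09, adjusted p = 4.44e-05), while B6 changed by -0.01 (SE 0.09). The FVB groups did not overlap at either day, and the strain difference at day 53 passed (log2 -0.42, SE 0.12, adjusted p = 0.00771). A second Cyp2j5 probe set gave -0.83 in FVB and -0.98 in B6 at day 2 and -0.75 in FVB at day 53. Cyp2j9 was lower at day 28 in both strains, with 5.41, 5.62, 5.70 and 6.01 in FVB Nx against 6.07, 6.66, 6.39 and 6.08 in sham (log2 -0.61, SE 0.20, adjusted p = 0.0345). It read 5.45, 5.63, 5.49 and 5.63 in B6 Nx against 5.96, 6.09, 6.07 and 6.50 in sham (log2 -0.60, SE 0.20, adjusted p = 0.0324). The FVB call was lost without Nx mouse 2, 3 or 7 or sham mouse 2 or 3 (log2 -0.62 to -0.49, adjusted p = 0.0668 to 0.139). The B6 call was lost without Nx mouse 3 or 5 or sham mouse 5 or 6 (log2 -0.63 to -0.49, adjusted p = 0.0503 to 0.128). At day 53 its effect was higher in FVB than in B6 (log2 0.85, SE 0.29, adjusted p = 0.022), from changes of 0.44 and -0.41 that did not pass singly. This call was lost without B6 Nx mouse 2 or 4, FVB Nx mouse 7 or FVB sham mouse 6 (log2 0.60 to 0.78, adjusted p = 0.0503 to 0.0848). Cyp2j6 gave small rises in FVB at day 53 (log2 0.35, SE 0.12, adjusted p = 0.0134) and B6 at day 28 (log2 0.34, SE 0.12, adjusted p = 0.0465), and its probe sets disagreed at day 2, with -0.08 and 0.01 on the main and -0.73 and -0.63 on the other probe set. The B6 call at day 28 was lost without Nx mouse 4, 5 or 9 or sham mouse 1, 5 or 6 (log2 0.27 to 0.34, adjusted p = 0.0681 to 0.167). The Cyp2j6 call in B6 was also lost in 6 alternatives (log2 0.07 to 0.34, adjusted p = 0.0651 to 0.9). Among the Cyp2j9 calls, that in FVB at day 28 was lost with only the compared arrays fitted (log2 -0.61, adjusted p = 0.0669) and without arrays carrying pancreas RNA (log2 -0.96, adjusted p = 0.104). That in B6 was lost without arrays carrying pancreas RNA (log2 -0.77, adjusted p = 0.0932), and the strain difference with only the compared arrays fitted (log2 0.85, adjusted p = 0.0733).

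The Cyp4 genes encode enzymes that hydroxylate fatty acids, mainly at the chain end. Cyp4v3, which acts on medium-chain fatty acids, was higher in all 6 comparisons. At day 2 it read 6.29, 6.60, 6.57 and 6.56 in FVB sham and 7.69, 7.91, 7.65 and 7.53 in FVB Nx kidneys (log2 1.19, SE 0.18, adjusted p = 4.62e-07). In B6 it read 5.81, 6.15, 6.21 and 6.12 in sham and 6.66, 7.29, 6.62 and 7.21 in Nx kidneys (log2 0.87, SE 0.18, adjusted p = 0.000111). At day 53 it read 6.38, 6.57, 6.52 and 6.69 in sham and 7.32, 7.71, 7.94 and 7.14 in Nx kidneys in FVB (log2 0.99, SE 0.18, adjusted p = 1.14e-05). In B6 kidneys that day it read 6.58, 6.15, 5.89 and 6.35 in sham and 6.86, 6.66, 6.90 and 6.80 in Nx kidneys (log2 0.56, SE 0.18, adjusted p = 0.0281). The groups did not overlap in these comparisons, and no strain difference passed at any day (largest 0.43 (SE 0.25) at day 53). At day 28 the rises were 0.58 (SE 0.18) and 0.60 (SE 0.18). The FVB call was lost without Nx mouse 3 or 7 or sham mouse 3 (log2 0.49 to 0.51, adjusted p = 0.0748 to 0.0984). The B6 call was lost without Nx mouse 3 or sham mouse 5 (log2 0.41 to 0.51, adjusted p = 0.0695 to 0.135). The call in B6 at day 53 was lost without Nx mouse 1, 4 or 7 or sham mouse 3 or 5 (log2 0.44 to 0.56, adjusted p = 0.0531 to 0.137). The FVB call at day 28 was also lost with the mean of its probe sets (log2 0.45, adjusted p = 0.0838), with only the compared arrays fitted (log2 0.58, adjusted p = 0.061) and without arrays carrying pancreas RNA (log2 0.48, adjusted p = 0.401). The B6 calls were lost without arrays carrying pancreas RNA (log2 0.59, adjusted p = 0.0959) at day 2 and with only the compared arrays fitted (log2 0.60, adjusted p = 0.141) at day 28. At day 53 the B6 call was also lost with the mean of its probe sets (log2 0.46, adjusted p = 0.081) and without arrays carrying pancreas RNA (log2 0.54, adjusted p = 0.1).

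Cyp4f16 exceeded log2 5 on 5 arrays, 4 of them the FVB Nx arrays of day 53 and the other an FVB Nx array of day 2. It was thus kept only through the group in which it is high, and its values in that group are a description that supports nothing about the members. At day 53 it read 3.69, 4.40, 4.25 and 4.26 in FVB sham and 5.27, 5.15, 5.49 and 5.31 in FVB Nx kidneys, and 4.26, 4.02, 4.06 and 4.33 in B6 sham and 4.63, 4.69, 4.55 and 4.64 in B6 Nx kidneys. The FVB Nx arrays lay above all others of that day, by 1.16 over FVB sham, and the B6 groups did not overlap either (log2 0.46, SE 0.15, adjusted p = 0.0284). The B6 call was lost with quantile normalisation (log2 0.27, adjusted p = 0.215) and without arrays carrying pancreas RNA (log2 0.45, adjusted p = 0.103). It was also lost without Nx mouse 1, 2 or 7 or sham mouse 3 or 5 (log2 0.41 to 0.46, adjusted p = 0.0566 to 0.0915). With a floor at log2 5, under which all B6 arrays lay, the value was 0.0. At day 2 Cyp4f16 was higher in FVB (log2 0.62, SE 0.15, adjusted p = 0.000405), a call lost with quantile normalisation (log2 0.24, adjusted p = 0.158) and with a floor at log2 5 (log2 0.10, adjusted p = 0.0963). Cyp4f13, of the same subfamily and named after its values were seen, was lower in FVB (log2 -0.56, SE 0.16, adjusted p = 0.00295) and B6 (log2 -0.53, SE 0.16, adjusted p = 0.00621) at day 2. Its Nx arrays that day read 4.23 to 4.74 in FVB and 3.97 to 4.95 in B6. The sham arrays read 4.99 to 5.38 and 4.97 to 5.09. All these Nx arrays lay under log2 5, so that the size of the falls is not well measured.

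Cyp4b1, an enzyme of fatty acids and foreign compounds best known from lung, fell in FVB at days 2 and 53. At day 2 it read 12.18, 12.27, 12.49 and 12.66 in FVB sham and 11.61, 11.86, 11.28 and 11.95 in FVB Nx kidneys (log2 -0.73, SE 0.24, adjusted p = 0.00865). On day 53 it read 13.31, 12.54, 13.02 and 12.82 in sham and 12.28, 12.10, 12.38 and 12.10 in Nx kidneys (log2 -0.71, SE 0.24, adjusted p = 0.0104). In B6 at day 53 it read 12.21, 12.14, 12.63 and 12.33 in sham and 12.73, 12.66, 12.77 and 13.03 in Nx kidneys (log2 0.47, SE 0.24, adjusted p = 0.196). The effects differed at day 53 (log2 -1.18, SE 0.33, adjusted p = 0.00646) and did not pass as different at day 2 (log2 -1.03, SE 0.33, adjusted p = 0.0659). The FVB call at day 53 was lost without sham mouse 1 (log2 -0.58, adjusted p = 0.0525). Cyp4a31 was higher at day 2 in both strains, with 10.60, 10.45, 10.29 and 10.64 in FVB sham and 10.99, 11.49, 11.37 and 11.20 in FVB Nx kidneys (log2 0.76, SE 0.19, adjusted p = 0.00101). The B6 values were 8.95, 9.61, 9.12 and 9.31 in sham and 10.26, 10.08, 10.01 and 9.87 in Nx kidneys (log2 0.81, SE 0.19, adjusted p = 0.000788). Cyp4a14, a classic target of PPAR alpha, was higher in B6 at day 2 (log2 0.64, SE 0.20, adjusted p = 0.00712), where FVB changed by 0.23 (SE 0.20). The Cyp4a genes are near-identical neighbours, and 1 probe set is annotated to Cyp4a31 and Cyp4a10 together (0.66 in B6 at day 2), so the gene behind each signal is uncertain. The Cyp4b1 calls were lost without arrays carrying pancreas RNA (log2 -0.68, adjusted p = 0.0626) in FVB at day 53 and without arrays carrying pancreas RNA (log2 -1.07, adjusted p = 0.0609) for the strain difference. The Cyp4a31 call in FVB was lost without arrays carrying pancreas RNA (log2 0.49, adjusted p = 0.107).

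**Figure D3:**
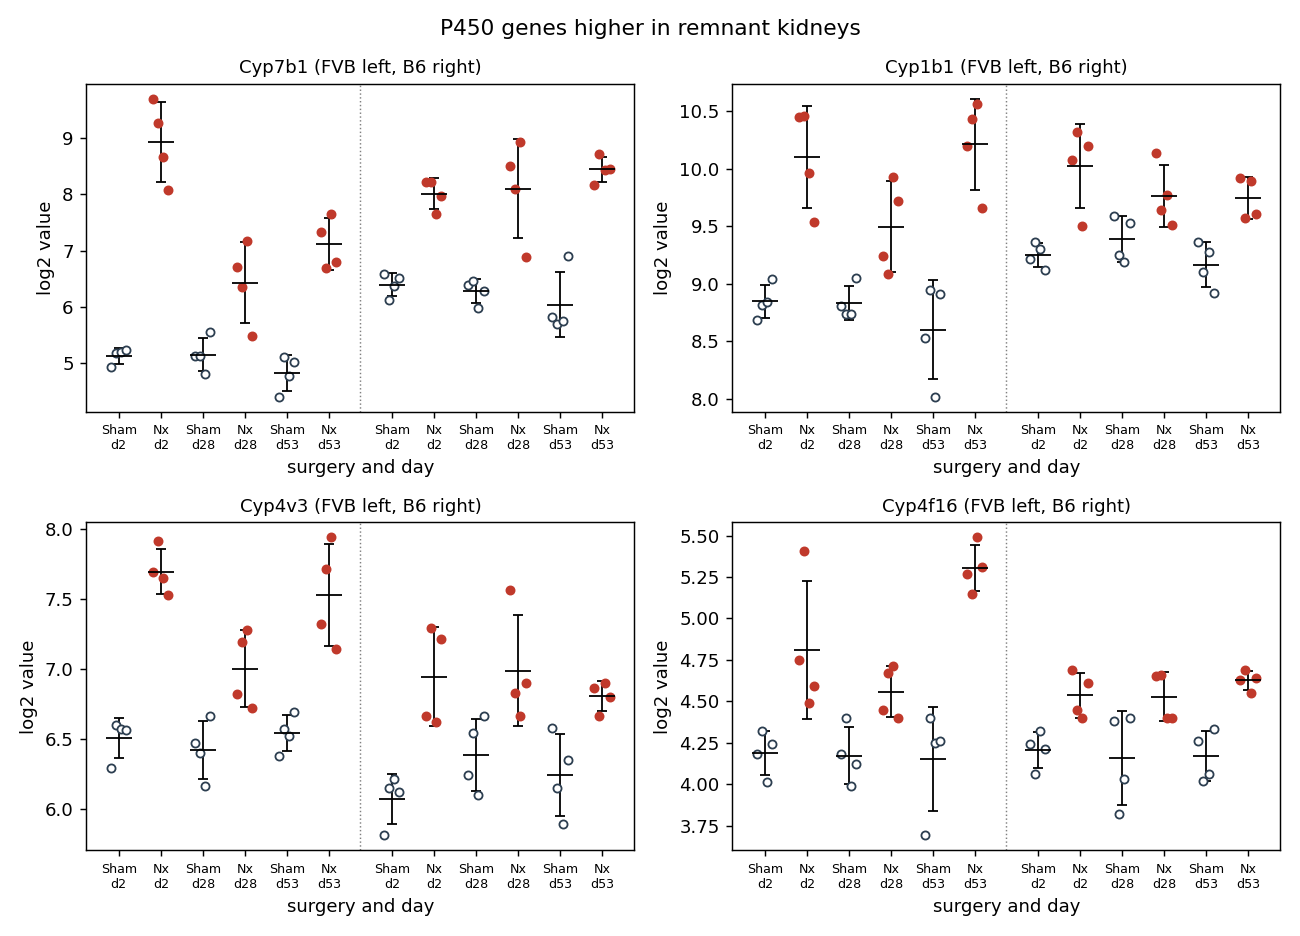
Log2 values of Cyp7b1, Cyp1b1, Cyp4v3 and Cyp4f16 on every array, by strain, day and surgery; open points are sham and filled points Nx mice (4 per group), and the bars give the mean and its SD. The FVB Nx points of Cyp7b1 run from 8.08 to 9.70 at day 2, above all B6 sham points, and its FVB sham points lie below the B6 sham points at every day.

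Cyp7b1, an oxysterol hydroxylase that leads into bile acids and also clears steroids, had the largest rise of the members at day 2 in both strains, and was higher in all 6 comparisons. At day 2 it read 4.93, 5.19, 5.20 and 5.23 in FVB sham and 9.70, 9.26, 8.67 and 8.08 in FVB Nx kidneys, a 13.8-fold rise (log2 3.79, SE 0.33, adjusted p = 2.62e-12). The B6 arrays read 6.58, 6.13, 6.37 and 6.51 in sham and 8.22, 8.22, 7.65 and 7.97 in Nx kidneys, a 3.07-fold rise (log2 1.62, SE 0.33, adjusted p = 9.57e-05). The FVB sham arrays lay below the B6 sham arrays and the Nx arrays of the strains overlapped, and the difference of the effects passed (log2 2.17, SE 0.46, adjusted p = 0.00324). At day 28 the Nx arrays read 6.71, 6.36, 7.18 and 5.49 in FVB, where 1 of them lay within the sham range of 5.13, 5.13, 4.82 and 5.55 (log2 1.28, SE 0.33, adjusted p = 0.00513). In B6 they read 8.51, 8.09, 8.93 and 6.88, all above the sham values of 6.39, 6.47, 5.99 and 6.28 (log2 1.82, SE 0.33, adjusted p = 8.58e-05). At day 53 they read 7.34, 6.69, 7.65 and 6.80 in FVB against 4.41, 5.11, 4.78 and 5.02 (log2 2.29, SE 0.33, adjusted p = 1.71e-07). The B6 Nx arrays read 8.17, 8.72, 8.44 and 8.45 against 5.82, 5.70, 5.75 and 6.90 (log2 2.41, SE 0.33, adjusted p = 1.61e-06). The rise in FVB lessened from day 2 to day 28 (log2 -2.51, SE 0.46, adjusted p = 9.79e-05). The change in B6 over the same span was 0.20 (SE 0.46). At day 53 the strains' effects differed by -0.12 (SE 0.46) with an adjusted p of 0.896. Sham kidneys of FVB had lower values than those of B6 (log2 -1.20, SE 0.19, adjusted p = 2.45e-06), also with the second probe set (-1.60), which gave 4.39 and 2.08 at day 2. The FVB call at day 28 was lost with only the compared arrays fitted (log2 1.28, adjusted p = 0.0579).

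Cyp27a1, the mitochondrial sterol side-chain hydroxylase, fell at day 2. It read 8.31, 8.31, 8.25 and 8.50 in FVB sham and 6.99, 7.12, 7.04 and 7.55 in FVB Nx kidneys (log2 -1.17, SE 0.15, adjusted p = 1.85e-08). In B6 it read 7.78, 8.24, 8.32 and 7.98 in sham and 6.75, 7.05, 7.02 and 7.06 in Nx kidneys (log2 -1.11, SE 0.15, adjusted p = 1.13e-07). The groups did not overlap. At day 28 the Nx arrays, 8.37, 8.26, 8.24 and 8.44 in FVB and 7.68, 8.71, 8.48 and 8.71 in B6, were mixed with the sham arrays, 8.24, 8.29, 8.26 and 8.52 and 8.31, 8.21, 8.57 and 8.54. In FVB kidneys at day 53 the Nx arrays read 7.80, 8.28, 8.09 and 7.67 against 8.50, 8.32, 8.45 and 8.51 (log2 -0.49, SE 0.15, adjusted p = 0.00571). The B6 Nx arrays read 8.32, 8.36, 8.48 and 8.58 against 8.20, 8.26, 8.24 and 8.25 (log2 0.20, SE 0.15, adjusted p = 0.442). The strain difference passed (log2 -0.68, SE 0.21, adjusted p = 0.0125) but neither it (-0.61, adjusted p = 0.0525) nor the FVB fall (-0.41, adjusted p = 0.0598) passed without the arrays with adrenal transcripts.

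Cyp39a1, another oxysterol hydroxylase, fell in B6 at day 53, where the Nx arrays read 4.12, 4.04, 4.45 and 4.67 and the sham arrays 6.95, 5.94, 5.77 and 6.24 (log2 -1.91, SE 0.41, adjusted p = 0.000954). The FVB Nx arrays that day, 4.05, 3.99, 5.24 and 3.36, overlapped the sham arrays, 4.04, 4.63, 4.05 and 5.23 (log2 -0.33, SE 0.41, adjusted p = 0.536). At day 2 its values were 3.31, 4.18, 4.28 and 4.95 in FVB sham, 3.80, 3.88, 3.92 and 5.48 in FVB Nx, 6.22, 5.66, 5.87 and 5.75 in B6 sham and 4.05, 4.75, 5.78 and 6.24 in B6 Nx kidneys. The Nx arrays overlapped the sham arrays in both strains and neither change passed. Its strain difference at day 53 (log2 1.58, SE 0.58, adjusted p = 0.0364) was lost without B6 Nx mouse 1 or 2, B6 sham mouse 1 or 6, FVB Nx mouse 8 or FVB sham mouse 1 or 5 (log2 1.22 to 1.57, adjusted p = 0.0515 to 0.119), while sham kidneys of FVB had lower values (log2 -1.47, SE 0.24, adjusted p = 3.38e-06). The strain difference was also lost without the filter (log2 1.58, adjusted p = 0.0565), with quantile normalisation (log2 1.34, adjusted p = 0.0666) and without arrays carrying adrenal RNA (log2 1.44, adjusted p = 0.0901). With a floor at log2 5 the fall in B6 at day 53 was -1.23 and the sham difference -0.90, and both still passed.

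Cyp26b1, which breaks down retinoic acid, was the only member of the retinoid and vitamin D subfamilies. At day 2 it read 6.68, 6.25, 6.60 and 8.52 in FVB sham and 4.75, 4.09, 4.07 and 4.63 in FVB Nx kidneys (log2 -2.63, SE 0.61, adjusted p = 0.000388). The B6 values were 3.40, 6.15, 5.87 and 5.82 in sham and 5.95, 3.41, 4.29 and 4.65 in Nx kidneys (log2 -0.73, SE 0.61, adjusted p = 0.359). At day 28 it read 6.36, 5.31, 5.60 and 6.38 in B6 sham and 3.08, 3.41, 3.41 and 3.41 in B6 Nx kidneys (log2 -2.59, SE 0.61, adjusted p = 0.00219). The FVB arrays read 6.59, 5.47, 6.66 and 7.41 in sham and 6.21, 3.80, 4.80 and 7.17 in Nx kidneys (log2 -1.04, SE 0.61, adjusted p = 0.278). Where it was called, the groups did not overlap. The B6 call at day 28 was lost with a floor at log2 5 (log2 -0.91, adjusted p = 0.0936) and without arrays carrying pancreas RNA (log2 -2.68, adjusted p = 0.0703), and the FVB call at day 2 without arrays carrying pancreas RNA (log2 -2.26, adjusted p = 0.0858). At day 53 it read 5.96, 3.89, 6.00 and 3.11 in sham and 3.40, 3.41, 3.28 and 3.41 in Nx kidneys in FVB, and 3.97, 4.57, 4.99 and 5.17 in sham and 3.08, 3.08, 3.38 and 3.86 in Nx kidneys in B6, with changes of -1.37 (SE 0.61) and -1.32 (SE 0.61) that did not pass. No strain difference of the effect passed. Cyp20a1 was not called in any comparison, with changes from -0.18 to 0.18.

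The strains' responses were compared through the difference of their changes, FVB minus B6. At day 2, 1 member had a higher and 1 a lower effect in FVB (2.27% and 2.14% of all genes), Cyp7b1 and Cyp2d22. At day 28 limma called 0 in either direction (0.0607% and 0.0683% of all genes), and 0 members reached an unadjusted p under 0.05, against 220 higher and 374 lower of all genes. At day 53 the effect was higher in FVB for 4 members (Cyp1b1, Cyp2j9, Cyp39a1 and Cyp4f16, the last kept through its FVB values of that day) and lower for 8 (Cyp2d12, Cyp2j11, Cyp2d22, Cyp4b1, Cyp2d26, Cyp2e1, Cyp27a1 and Cyp2j5), against 14.2% and 14.9% of all genes. Without the arrays with adrenal transcripts 9 of these 12 were called, and Cyp27a1, Cyp39a1 and Cyp4f16 were not. Proximal tubule markers had a lower effect in FVB at day 53 in 15 of 18 (median log2 -0.91) and macrophage markers a higher one in 10 of 13, and their part in the P450 differences was not tested.

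Changes over time were compared in the same way. In FVB from day 2 to day 28 the effect went up in 7 members and down in 1, Cyp7b1 (12.8% and 12.5% of all genes): Cyp2d12, Cyp2d9, Cyp2d26, Cyp2c23, Cyp27a1, Cyp2j11 and Cyp2j5 went up, by 0.71 to 3.64. From day 28 to day 53 it went up in 4 (Cyp1b1, Cyp2j9, Cyp2s1 and Cyp4f16, the last kept only through its FVB Nx values at day 53) and down in 5 (Cyp2d12, Cyp2d22, Cyp2d26, Cyp2j11 and Cyp2j5), against 13.7% and 12.6% of all genes. In B6 from day 2 to day 28 it went up in 5 (Cyp2d12, Cyp2d26, Cyp27a1, Cyp2j11 and Cyp2j5) and down in 2 (Cyp2d22 and Cyp4a31; the Cyp2d22 call was lost without B6 Nx day 2 mouse 3 or 11, B6 Nx day 28 mouse 3 or 5, B6 sham day 2 mouse 1, 4 or 5 or B6 sham day 28 mouse 5 or 6 (log2 -0.90 to -0.71, adjusted p = 0.0505 to 0.112)), against 4.84% and 4.02% of all genes. From day 28 to day 53 limma called 0 members and 0 of all genes in B6 (0.0% in either direction); at an unadjusted p under 0.05 1 member went up and 1 down, and 216 and 189 of all genes. Comparisons that share a day share its arrays, so that these counts are not independent of each other. The Cyp2d9 call in FVB from day 2 to day 28 was lost without arrays carrying pancreas RNA (log2 1.86, adjusted p = 0.265) and the Cyp2c23 call with a floor at log2 5 (log2 0.87, adjusted p = 0.13). In B6 the calls from day 2 to day 28 were lost without arrays carrying pancreas RNA (log2 0.57, adjusted p = 0.19) for Cyp27a1. They were lost without arrays carrying pancreas RNA (log2 0.34, adjusted p = 0.362) for Cyp2j11 and without arrays carrying pancreas RNA (log2 0.43, adjusted p = 0.0619) for Cyp2j5. The Cyp2d22 call was lost without the filter (log2 -0.90, adjusted p = 0.0501), with only the compared arrays fitted (log2 -0.90, adjusted p = 0.157) and without arrays carrying adrenal RNA (log2 -0.90, adjusted p = 0.0561). The Cyp2s1 call in FVB from day 28 to day 53 was lost with a median shift per array (log2 0.43, adjusted p = 0.121) and without the filter (log2 0.54, adjusted p = 0.0526). It was also lost with quantile normalisation (log2 0.44, adjusted p = 0.0822) and without arrays carrying adrenal RNA (log2 0.52, adjusted p = 0.0991). Leaving out any 1 of 7 arrays lost it too (log2 0.49 to 0.54, adjusted p = 0.056 to 0.0877).

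In sham kidneys, taken over the 12 arrays of each strain, 3 members were higher in FVB and 7 lower (16.9% and 15.6% of all genes). Higher were Cyp2d22 (2.46), Cyp4b1 (0.82 (SE 0.14)) and Cyp4a31 (0.76 (SE 0.11)). Lower were Cyp2c23, Cyp2d9, Cyp39a1, Cyp7b1, Cyp2d26 (-0.87 (SE 0.12)), Cyp1b1 (-0.51 (SE 0.12)) and Cyp2s1 (-0.26 (SE 0.08)). The sign for Cyp4a31 depends on the probe set. Its second probe set read 3.00 to 3.35 on the 24 FVB arrays and 10.26 to 11.67 on the 24 B6 arrays, a difference of -8.02 in sham kidneys, while the main probe set gave 0.76 and their mean -3.63. Cyp2c23, Cyp2d9, Cyp39a1, Cyp2d26, Cyp4b1 and Cyp2s1 each had only 1 probe set annotated to them alone. Whether such probe sets read the strains alike was not tested.

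**Figure D4:**
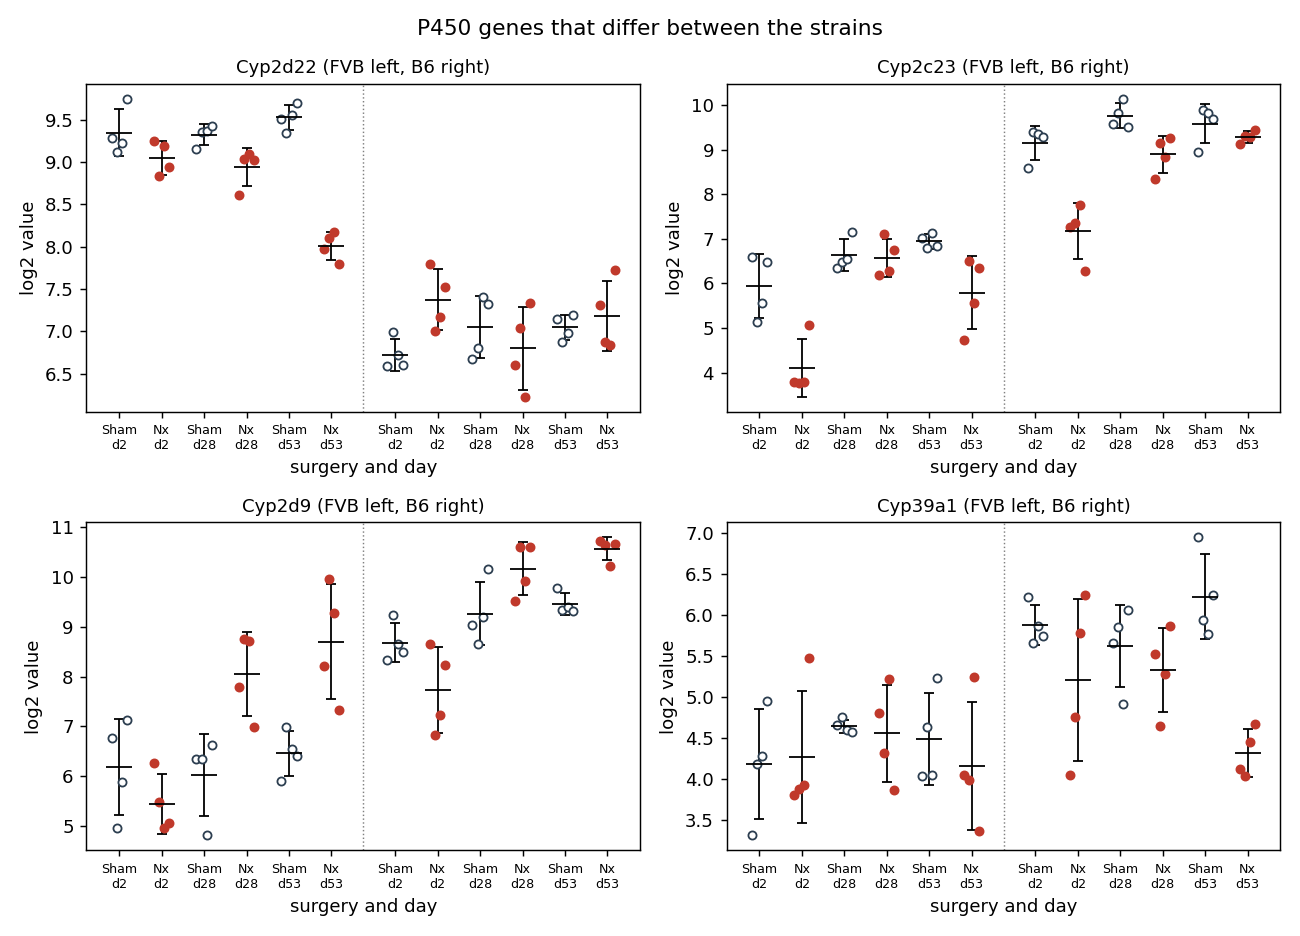
Log2 values of Cyp2d22, Cyp2c23, Cyp2d9 and Cyp39a1 on every array, by strain, day and surgery; open points are sham and filled points Nx mice (4 per group), and the bars give the mean and its SD. Sham points of Cyp2d22 lie higher in FVB and those of Cyp2c23 and Cyp2d9 lower in FVB than in B6 without overlap, and Cyp2d9 Nx points lie above sham points in both strains at day 53.

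Other parts of the P450 system were read from lists of genes outside the family. Of all genes tested, 24.8% were higher and 30.0% lower in FVB and 20.2% and 24.4% in B6 at day 2. The shares were 25.9% and 27.8% in FVB and 8.03% and 6.68% in B6 at day 53. Of 6 electron donor genes tested, 3 were lower and 1 higher in FVB at day 2, and 5 lower and 1 higher at day 53. Cyb5b, a cytochrome of the outer mitochondrial membrane, fell by 0.78 at day 2 and 0.93 at day 53 in FVB and by 0.48 at day 2 in B6. In the same order Fdx1, the mitochondrial ferredoxin, fell by 0.71, 0.67 and 0.49. Of 11 genes of haem synthesis and breakdown, 6 were lower and 2 higher in FVB at day 2 and 5 lower and 2 higher in B6. Among them Uros fell by 1.19 and 1.11 and Fech, which inserts the iron, by 0.91 and 0.24. Of 17 receptors and factors known to control P450 genes, 10 were lower and 2 higher in FVB at day 2, 9 lower and 2 higher in B6 at day 2, and 10 lower and 2 higher in FVB at day 53. Hnf4a, a main activator of proximal tubule and liver genes, fell by 0.94 in FVB and 0.87 in B6 at day 2, and Ppargc1a, a coactivator, by 1.09 and 0.54, while Cebpb rose by 1.67 and 1.44. At day 53 in B6, 0 of the 17 were higher and 1 lower.

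Of 4 flavin monooxygenases, which share substrates with P450 enzymes, 3 were lower in FVB at days 2 and 53 and in B6 at day 2. Fmo2 changed by -1.76 in FVB and -1.37 in B6 at day 2. Among 13 epoxide hydrolases and other eicosanoid enzymes, 5 were higher and 3 lower in FVB at day 2 and 5 and 5 at day 53. Hpgd, which inactivates prostaglandins, fell by 1.04 at day 2 and 2.08 at day 53 in FVB and by 1.10 and 0.64 in B6, and Alox5ap, a partner of leukotriene synthesis in leukocytes, rose by 2.95 and 3.16 in FVB and 1.61 and 1.28 in B6. Of 15 glucuronyl and sulfo transferases, 2 were higher and 6 lower in FVB at day 2; Ugt2b37 rose in all 6 comparisons, by 3.96, 3.61 and 5.89 in FVB and 2.30, 2.46 and 3.41 in B6. Of 17 PPAR alpha targets, 5 were higher and 4 lower in FVB and 5 higher and 2 lower in B6 at day 2, with Fabp1 at 2.88 and 1.58. Of 6 androgen-responsive kidney genes, 3 were higher and 2 lower in FVB at day 53, with Kap at -4.21 and Akr1c21 at 1.95, and 1 was higher and 0 lower in B6, where they changed by -0.37 and 0.28 and were not called.

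Of the 47 genes not kept, 15 passed the filter of the fit. At day 53 4 of them were higher and 3 lower in FVB (25.9% and 27.8% of all genes), and 1 higher and 0 lower in B6 (8.03% and 6.68% of all genes). Cyp4a12a, a fatty acid hydroxylase known as male-biased in mouse kidney, read 5.44, 4.91, 5.90 and 6.68 on the FVB Nx arrays at day 53 and under log2 4 on all others (log2 3.48 in FVB, difference between strains 3.02). Cyp2j13 read 4.23, 5.74, 5.82 and 5.26 on the same arrays (log2 3.03 in FVB, difference between strains 2.14). Both were picked after their values were seen. The third and the fourth of these arrays, of mice 8 and 10, hold adrenal transcripts, whose part in these values was not tested.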

How the data were processed

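Total RNA of frozen whole kidneys was measured on Affymetrix arrays, 48 mice in 12 groups of 4, and groups were taken from the labels' strain, surgery and day. The authors deposited 1 table of log2 values, and per the submitters' processing notes MAS5 was used, in a role that is not stated; background correction and normalisation are not given in the sources used here. The table holds 45101 probe sets, 64 of them controls, with a lowest value of 2.20 that takes 32.1% of all values, and array medians run from 3.17 to 3.44. Values were used as deposited. The platform annotation pairs 34945 probe sets with 1 symbol, 932 with several and 9211 with none listed; each gene was read by its single-symbol probe set with the highest mean, and 13174 genes above the 40th percentile of all values (2.28) on at least 4 arrays were tested. The members and lists were chosen with earlier results of these data known. Means of the 12 groups were fitted with limma 3.58.1 in R 4.3.3 (eBayes with an intensity trend, 36 residual degrees of freedom, Benjamini-Hochberg over all genes, threshold 0.05), and the procedure was tested on simulated data. Named were the 6 called members with the largest change in each direction of each comparison, every member of a role group of 5 or fewer, the members with the highest and lowest effect in FVB at day 2 in each subfamily of 3 or more, and up to 3 genes of each pathway list with the smallest p in FVB at day 2. Values by array are given for members so named in 3 or more comparisons and for the steroid and retinoid groups, and for Cyp2e1, added after its values were seen. Other scalings, filters, floors, probe set rules, models, a mouse-number block and left-out arrays were tried. Tables were made with Python 3.11.15, pandas 2.3.3 and numpy 2.4.6, and figures with matplotlib 3.10.9. Levels of different probe sets are not comparable, and the number of arrays limits the precision.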

Additional observations from a re-analysis of the deposited data

Results flagged for a closer look

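In 216 groups of 4 arrays of the members named by array, 19 held an array far from the other 3 relative to the group's range, where chance gives about 1 in 20. FVB Nx mouse 5 at day 2 was the high array for Cyp2c23 (5.07, others 3.77 to 3.79), Cyp2d26 (10.14, others 9.18 to 9.23) and Cyp39a1 (5.48, others 3.80 to 3.92). FVB Nx mouse 2 at day 28 was high for Cyp2d12 (8.32, others 6.82 to 7.05) and low for Cyp2d22 (8.61, others 9.02 to 9.09). B6 Nx mouse 3 was low for Cyp27a1 at day 2 (6.75, others 7.02 to 7.06), and at day 28 the mouse with that number was low for Cyp2j11 (11.59, others 12.22 to 12.34) and Cyp26b1 (3.08, others 3.41). In B6 sham kidneys, mouse 1 at day 2 was low for Cyp26b1 (3.40, others 5.82 to 6.15) and Cyp2c23 (8.58, others 9.28 to 9.40), mouse 5 at day 28 was high for Cyp2j11 (12.65, others 12.36 to 12.39), and at day 53 mouse 5 was low for Cyp2s1 (5.95, others 6.31 to 6.38) and mouse 6 high for Cyp7b1 (6.90, others 5.70 to 5.82). In FVB sham kidneys, mouse 1 at day 2 was low for Cyp4v3 (6.29, others 6.56 to 6.60) and Cyp7b1 (4.93, others 5.19 to 5.23), mouse 4 at day 2 was low for Cyp2j11 (12.53, others 12.64 to 12.65), and mouse 3 at day 28 was low for Cyp2d9 (4.81, others 6.35 to 6.62). The last are Cyp26b1 of FVB Nx mouse 8 at day 53 (3.28, others 3.40 to 3.41), an array with adrenal transcripts, and Cyp2d9 of B6 Nx mouse 4 at day 53 (10.23, others 10.65 to 10.73).

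The test of a difference between strains, FVB minus B6 on the log2 scale, passed in limma at day 2 for Cyp2d22 (-0.95) and Cyp7b1 (2.17). At day 53 it passed for Cyp2d12 (-4.44), Cyp2j11 (-1.68), Cyp2d22 (-1.66), Cyp4b1 (-1.18), Cyp2d26 (-1.10), Cyp2e1 (-1.08), Cyp27a1 (-0.68), Cyp2j5 (-0.42), Cyp4f16 (0.70), Cyp2j9 (0.85), Cyp1b1 (1.03) and Cyp39a1 (1.58). Cyp4f16 was kept as a member only through its FVB Nx values at day 53.

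The test of a difference between days passed in FVB from day 2 to day 28 for Cyp2d12 (3.64), Cyp2d9 (2.76), Cyp2d26 (1.96), Cyp2c23 (1.78), Cyp27a1 (1.17), Cyp2j11 (0.96), Cyp2j5 (0.71) and Cyp7b1 (-2.51). From day 28 to day 53 it passed in FVB for Cyp2d12 (-4.89), Cyp2j11 (-1.33), Cyp2d22 (-1.13), Cyp2d26 (-0.94), Cyp2j5 (-0.39), Cyp2s1 (0.54), Cyp4f16 (0.77), Cyp1b1 (0.95) and Cyp2j9 (1.05). In B6 from day 2 to day 28 it passed for Cyp2d12 (2.24), Cyp2d26 (1.82), Cyp27a1 (1.10), Cyp2j11 (0.93), Cyp2j5 (0.61), Cyp2d22 (-0.90) and Cyp4a31 (-1.14). As in the strain test, Cyp4f16 was a member only through its FVB Nx values at day 53, which its change from day 28 to day 53 uses.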

How the results depend on the processing

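Of 99 results named for single members, 62 kept their direction and their side of the threshold under every alternative run for them (11 or 12 each) and every left-out array, 36 lost their call in at least 1 alternative, 19 without 1 array, and 3 reversed or became 0.0. The sign turned for Cyp2d12 from day 2 to 28 in B6 without the arrays with pancreas transcripts (-1.10). It also turned for Cyp4a31 in sham kidneys with the mean of its probe sets (-3.63). For Cyp4f16 in B6 at day 53 the change was 0.0 with a floor of log2 5, under which all its B6 arrays lay, so that no sign turned. Leaving out the arrays with pancreas transcripts leaves 1 Nx array in 4 groups and 2 in each Nx group at day 53, and a lone array is then assumed to vary like the other groups. It changed the count of higher members to 1 and of lower members to 0 in FVB at day 28, of lower members to 6 in B6 at day 28, of higher members to 2 in B6 at day 53, of strain differences at day 28 to 2, and of changes between days in B6 to 3 (day 2 to 28) and 3 (day 28 to 53). With only the arrays of a comparison fitted, 1 member was higher in FVB and 1 in B6 at day 28, and 4 were lower in B6 at day 53. Lower members at day 28 numbered 4 in FVB with array weights and 5 in B6 with a median shift per array. Strain differences at day 2 numbered 1 with quantile normalisation, without the filter, with array weights, with only the arrays of the comparison and without the arrays with adrenal transcripts, the last chosen after seeing the data. The cause of these changes was not tested.

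Leaving out 1 array at a time gave, for FVB, 5 to 6 higher and 9 to 10 lower members at day 2, 2 to 5 and 0 to 3 at day 28, and 6 to 9 and 8 to 10 at day 53. For B6 it gave 7 to 7 and 6 to 8, 1 to 3 and 2 to 4, and 2 to 5 and 2 to 2. Strain differences numbered 1 to 3, 0 to 0 and 10 to 13 at days 2, 28 and 53; the count at day 2 was 1 without B6 Nx mouse 3, FVB Nx mouse 2, B6 sham mouse 1, 4 or 5, or FVB sham mouse 1 or 5. Changes between days numbered 8 to 9 and 8 to 11 in FVB and 5 to 7 and 0 to 0 in B6, and sham differences 10 to 11. Mouse numbers recur across groups, but the 10 pairs with the same number correlated from -0.251 to 0.378 and the 86 pairs with different numbers from -0.577 to 0.469, so the numbers were not taken as pairs. With the mouse number as a replicate block (consensus correlation 0.1264) the lower members in B6 at day 28 numbered 5, and each other count stayed within 1.5 times. Values at the lowest deposited level are not measured, and no member had an array at that level. Some members repeat a low value of their own above that level. Cyp26b1 read 3.41 on several Nx arrays of both strains, and Cyp4f13 read 4.99 on many Nx and sham arrays. Whether such repeated values are measured was not tested. Changes of members read near the low end of the scale may be compressed, which was not tested.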
